A study of Mus musculus with 6 samples.

Results

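The RNA of whole B16-F10 tumors was examined for 36 genes of glucose uptake, glycolysis, lactate export and the hypoxia response, out of 21358 entries in the deposited table. The genes were taken by symbol from a fixed list, and all 36 were found in the table and passed the filter on low values. B16-F10 is a murine melanoma line, here growing under the skin of C57/BL6 mice that had been lymphodepleted by total body irradiation. All mice received adoptive cell transfer (ACT) of activated splenocytes from pmel-1 mice, a strain with a transgenic T cell receptor against the melanoma antigen gp100, once their tumors measured at least 150 mm3. The ACT + IL-2 group (3 tumors) then received 0.4 mg/kg IL-2 into the peritoneum, repeated on consecutive days within a cycle. The ACT + NKTR-214 group (3 tumors) received NKTR-214, IL-2 with releasable polyethylene glycol chains, intravenously at 0.8 mg/kg once per cycle. Tumors were harvested at day 12, and each gave 1 library of 50-base single-end reads. No untreated tumor and no tumor with ACT alone was analysed here, so each value compares the cytokines with each other. Agent, dose, route and schedule differed together between the groups and cannot be told apart.

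Glycolysis splits glucose to pyruvate in the cytosol, and lactate dehydrogenase and the monocarboxylate transporters dispose of the pyruvate as lactate. Tumor cells and activated lymphocytes are both known for high glucose use. When oxygen is low, the prolyl hydroxylases encoded by the *Egln* genes work less, hypoxia-inducible factor (HIF) is no longer marked for destruction by the VHL protein, and HIF raises the transcription of glucose transporters, glycolytic enzymes, *Vegfa*, *Car9* and of *Egln3* itself. HIF binds a short DNA core, ACGTG or GCGTG.

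To show where this core lies in genes with unlike results, the 250 bases before the RefSeq transcription start (GRCm38.p6) are printed for *Egln3*, which was higher with NKTR-214, *Hk2*, which was lower, and *Ldha*, which did not pass the test described below. Capitals mark ACGTG or GCGTG on either strand, read 5′ to 3′ in the direction of the gene. The windows are chr12:54203875-54204124 (minus strand) for *Egln3*, chr6:82774455-82774704 (minus strand) for *Hk2* and chr7:46845554-46845803 (plus strand) for *Ldha*.
Egln3: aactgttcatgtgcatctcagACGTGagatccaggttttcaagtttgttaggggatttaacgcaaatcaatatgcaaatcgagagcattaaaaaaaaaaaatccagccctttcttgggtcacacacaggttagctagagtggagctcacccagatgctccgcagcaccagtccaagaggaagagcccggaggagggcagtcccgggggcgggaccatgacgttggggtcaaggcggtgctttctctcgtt
Hk2: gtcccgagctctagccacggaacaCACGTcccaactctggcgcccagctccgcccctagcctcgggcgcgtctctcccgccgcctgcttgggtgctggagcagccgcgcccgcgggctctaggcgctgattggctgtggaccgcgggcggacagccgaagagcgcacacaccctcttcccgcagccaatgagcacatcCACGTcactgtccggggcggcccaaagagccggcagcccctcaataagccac
Ldha: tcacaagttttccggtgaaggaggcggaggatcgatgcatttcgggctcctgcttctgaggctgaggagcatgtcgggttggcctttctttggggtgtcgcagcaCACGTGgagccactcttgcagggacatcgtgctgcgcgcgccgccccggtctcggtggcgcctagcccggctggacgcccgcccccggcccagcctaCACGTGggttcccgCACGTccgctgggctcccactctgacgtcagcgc

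*Egln3* held 1 match, *Hk2* 2 and this *Ldha* window, 1 of 2 for that gene, 5, with matches counted on each strand so that the palindrome CACGTG counts once on both. RefSeq windows were found for 34 of the 36 genes and not for *Slc2a3* and *Ndrg1*. At least 1 window held the core in 31 of the 34 genes (91.2%), against 41.5% of all 27025 genes of the table. The 3 genes without it were *Gpi1*, *Tpi1* and *Eno2*. The windows of the 34 genes also held more CG dinucleotides (median 16, against 6 over all windows), and the core contains one. The core was present in the windows of *Pfkfb3*, *Pfkfb4* and *Egln3*, which were higher, and in those of *Hk2* and *Aldoc*, which were lower. Of the other called genes, *Eno2*, which was lower, had no core in its window, and *Slc2a3*, which was higher, had no window. A match of letters is a description and not a bound site.

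Values are FPKM, read numbers scaled to exon length and library size, so that levels can be compared between genes. For the test, limma was run on log2(FPKM + 1) of the 14172 genes whose mean reached 0.1 FPKM, p-values were adjusted after Benjamini-Hochberg, 0.05 was the threshold, and a positive log2 fold change means a higher level with NKTR-214. The pseudocount of 1 makes the fold change of a low gene smaller than that of its FPKM values. For 1 gene in 3 against 3 tumors the smallest p of a two-sided exact permutation test is 0.1, and smaller p-values come from the sharing of variance between genes in limma.

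The libraries had like depth and unlike FPKM sums. From the smallest steps between low FPKM values the libraries held an estimated 20500000 to 24200000 mapped reads. The FPKM of all entries summed to 176419.8 in ACT + IL-2 replicate 2 and to between 217581.4 and 246513.7 in the other tumors. ACT + IL-2 replicate 2 was the lowest tumor of its group for 36 of the 36 genes, against 80.1% of all genes tested. ACT + IL-2 replicate 3 was the highest of the 6 tumors for 30 of the 36 genes, against 28.6% of all genes tested. A result that rests on these tumors is therefore given below with other scalings of the libraries.

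The cell types in the tumors also differed. The summed FPKM of 7 T cell genes was 13.2 to 30.3 in ACT + IL-2 and 166 to 355 in ACT + NKTR-214, and all 7 passed the test. The sum of 8 macrophage and monocyte genes was 212 to 586 and 1068 to 1899, and all 8 passed, while the sum of 6 neutrophil genes was 4.11 to 9.44 and 22.3 to 50.4 (5 of 5 tested genes higher). The sum of 7 melanocyte lineage genes was 5413 to 6933 in ACT + IL-2 and 2664 to 3763 in ACT + NKTR-214, with 5 of 7 lower, so the defining genes of the melanoma were present in every tumor. The sum of 6 genes of cycling cells was 159 to 201 and 101 to 149 (4 of 6 lower), and that of 6 skeletal muscle genes was 36.9 to 94.3 and 30.9 to 43.4 (4 of 6 lower). Summed levels of endothelial, fibroblast, adipocyte and erythroid genes overlapped between the groups. Their lists had 1 of 6, 5 of 6, 1 of 4 and 0 of 3 tested genes higher and none lower. In bulk RNA, fewer cells of a type and less RNA per cell cannot be told apart, and the part of these cell types in the results below was not tested.

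NKTR-214 and IL-2 tumors differed in a small number of the 36 genes, in both directions. *Slc2a3*, *Pfkfb3*, *Pfkfb4* and *Egln3* were higher in ACT + NKTR-214, and *Hk2*, *Aldoc* and *Eno2* were lower. The 4 higher genes made up 11.1% of the list, where 20.7% of all tested genes were higher, and the 3 lower genes made up 8.33%, where 8.28% of all tested genes were lower (29.0% in either direction). With FPKM as deposited, the share of higher genes was thus below that of all genes and the share of lower genes close to it, while other scalings gave more lower genes, as described below. Tumors of one group all lay on one side of those of the other in 3 genes that were higher (27.1% of all tested genes) and 5 that were lower (15.3% of all tested genes), 8 in all where 42.4% of tested genes had no overlap. The median log2 fold change was -0.15 over the 36 genes and 0.05 over all genes tested, and 21 of the 36 had a negative value.

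**Figure D1:**
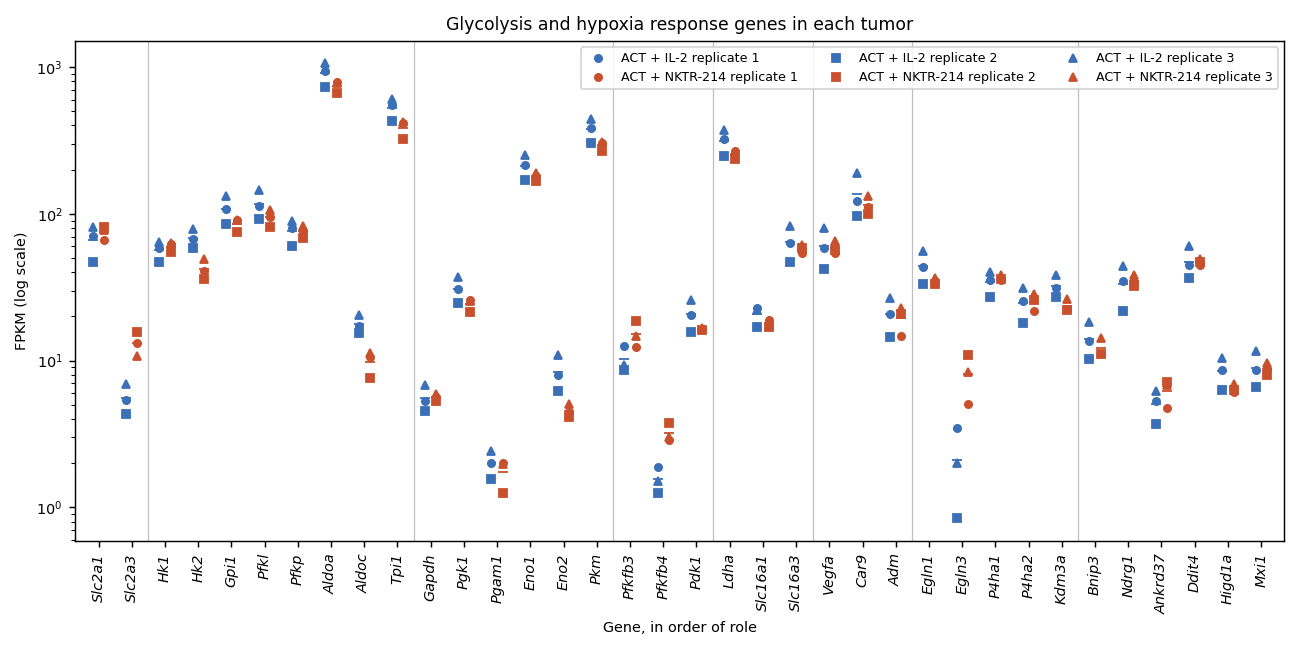
FPKM on a log axis for each of the 36 genes, with 1 point per tumor (blue, ACT + IL-2; orange, ACT + NKTR-214; the marker shape gives the replicate) and a line at each group mean; grey lines part the roles, from glucose uptake at the left to the stress genes at the right. *Slc2a3*, *Pfkfb4* and *Egln3* have all orange points above all blue points, *Hk2*, *Aldoc*, *Tpi1*, *Eno2* and *Kdm3a* have all orange points below, and the other genes overlap.

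Glucose enters cells through the facilitative transporters GLUT1, encoded by *Slc2a1* and widespread in tumor cells, and GLUT3, encoded by *Slc2a3*, a high-affinity form found in neurons and leukocytes. *Slc2a3* (chromosome 6, 122727809 to 122801640) had 5.38, 4.34 and 6.89 FPKM in the ACT + IL-2 tumors and 13.1, 15.7 and 10.7 FPKM in the ACT + NKTR-214 tumors, in order of replicate number here and throughout. Every ACT + NKTR-214 tumor lay above every ACT + IL-2 tumor. The means were 5.54 ± 1.28 and 13.2 ± 2.50 FPKM (SD, n = 3 each), and the log2 fold change was 1.12 ± 0.18 (SE, adjusted p = 0.000187, limma). *Slc2a1* was the more abundant transporter gene in all 6 tumors, with 71.2, 47.0 and 81.5 FPKM with IL-2 and 66.8, 81.2 and 78.1 FPKM with NKTR-214. Its groups overlapped, and the log2 fold change of 0.21 had a 95% interval from -0.20 to 0.62 (limma adjusted p = 0.462).

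The entry of glucose into glycolysis is catalysed by hexokinases. *Hk1* encodes the housekeeping form, and *Hk2* the inducible form of muscle, fat and many tumors. *Hk2* (chromosome 6, 82725025 to 82774454) had 67.2, 58.8 and 79.2 FPKM with IL-2 and 40.6, 36.1 and 49.3 FPKM with NKTR-214. The highest ACT + NKTR-214 tumor stayed below the lowest ACT + IL-2 tumor. The means were 68.4 ± 10.2 and 42.01 ± 6.74 FPKM (SD, n = 3 each), or -0.69 ± 0.17 as log2 fold change (SE, adjusted p = 0.00537, limma). *Hk1* had group means of 56.6 ± 8.89 and 59.9 ± 4.67 FPKM (SD, n = 3 each) with overlap, and its log2 fold change of 0.09 had a 95% interval from -0.25 to 0.43 (limma adjusted p = 0.722).

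The steps from glucose 6-phosphate to triose phosphates are carried out by glucose phosphate isomerase (*Gpi1*), phosphofructokinase (*Pfkl* of the liver type and *Pfkp* of the platelet type), aldolase (*Aldoa* of muscle and most tissues, *Aldoc* of brain) and triose phosphate isomerase (*Tpi1*). *Aldoc* (chromosome 11, 78322968 to 78327781) had 17.3, 15.5 and 20.6 FPKM with IL-2 and 10.7, 7.60 and 11.3 FPKM with NKTR-214, without overlap. Its means were 17.8 ± 2.60 and 9.85 ± 1.97 FPKM (SD, n = 3 each), or -0.80 ± 0.17 as log2 fold change (SE, adjusted p = 0.00186, limma), the lowest of the 36 genes. *Aldoa* was the most abundant of the 36 genes, with 943, 732 and 1058 FPKM with IL-2 and 789.7, 664 and 784 FPKM with NKTR-214. Its groups overlapped through ACT + IL-2 replicate 2, and the log2 fold change of -0.28 did not pass (limma adjusted p = 0.495).

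*Tpi1* had 553, 430.0 and 608 FPKM with IL-2 and 415, 323 and 423 FPKM with NKTR-214. The groups did not overlap, but the second ACT + IL-2 tumor and the third ACT + NKTR-214 tumor lay close together, and the log2 fold change of -0.45 missed the threshold (limma adjusted p = 0.18). *Pfkl* had 113, 92.2 and 146 FPKM with IL-2 and 94.9, 81.9 and 107 FPKM with NKTR-214, overlapping (log2 fold change -0.29, limma adjusted p = 0.287). Neither *Pfkp* (log2 fold change 0.00) nor *Gpi1* (-0.32) passed the test.

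The steps from triose phosphates to pyruvate yield the ATP of the pathway. Neuron-type enolase, encoded by *Eno2* (chromosome 6, 124760053 to 124769673), was the only gene of this group of 6 to pass the test. *Eno2* had 8.04, 6.22 and 11.0 FPKM with IL-2 and 4.47, 4.13 and 5.04 FPKM with NKTR-214, without overlap. Its means were 8.42 ± 2.42 and 4.55 ± 0.458 FPKM (SD, n = 3 each), or -0.74 ± 0.18 as log2 fold change (SE, adjusted p = 0.0062, limma). *Eno1*, the widespread enolase gene, was more abundant in every tumor, with 214, 169.8 and 253 FPKM with IL-2 and 182, 168.8 and 191 FPKM with NKTR-214. The log2 fold change of *Eno1* was -0.22 (limma adjusted p = 0.455). *Pkm*, which encodes the pyruvate kinase of muscle and of most tumors, had 387, 302 and 446 FPKM with IL-2 and 303, 268 and 309 FPKM with NKTR-214, again with overlap through ACT + IL-2 replicate 2 (log2 fold change -0.35, limma adjusted p = 0.256).

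The levels of *Gapdh*, *Pgk1* and *Pgam1* in the table were low beside their neighbours in the pathway. Over the 6 tumors *Gapdh* had a mean of 5.59 FPKM, *Pgk1* 27.6 FPKM and *Pgam1* 1.88 FPKM, against 459 FPKM for *Tpi1* and 336 FPKM for *Pkm*. These genes have many near-identical copies in the mouse genome. Of the 50-base windows of the protein-coding transcripts, 58.4% of those of *Gapdh*, 68.0% of those of *Pgk1* and 41.5% of those of *Pgam1* also occur in the transcripts of another annotated gene, pseudogenes included, as do 49.5% for *Eno1* and 59.1% for *Bnip3*. How the authors' counting treated reads with more than 1 match is not given in the sources used here, so the levels of these 5 genes are uncertain. The share was between 10.4% and 24.5% for *Ldha*, *Ankrd37*, *Ndrg1*, *Pfkp*, *Pkm*, *Higd1a* and *Gpi1*, and it was at most 0.53% for the 7 genes that passed the test. The log2 fold changes were 0.03 for *Gapdh*, -0.32 for *Pgk1* and -0.13 for *Pgam1*, and none passed.

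Among the genes that set the flux through glycolysis, the 6-phosphofructo-2-kinase genes *Pfkfb3* and *Pfkfb4* were higher in ACT + NKTR-214. Their enzymes make the sugar bisphosphate that activates phosphofructokinase. Of the genes of this family outside the 36, *Pfkfb1* was higher at a low level (0.501 ± 0.0904 and 1.17 ± 0.521 FPKM, SD, n = 3 each, limma adjusted p = 0.0184) and missed the threshold after quantile normalization and without ACT + IL-2 replicate 2 or the second ACT + NKTR-214 tumor (limma adjusted p = 0.2, 0.135 and 0.057). *Pfkfb2* had a log2 fold change of -0.26 (limma adjusted p = 0.228) and was lower with the 3 other scalings (limma adjusted p = 0.0104 to 0.0198). *Pfkfb4* (chromosome 9, 108991778 to 109032228) had 1.89, 1.26 and 1.51 FPKM with IL-2 and 2.88, 3.79 and 3.02 FPKM with NKTR-214, without overlap. The means were 1.55 ± 0.32 and 3.23 ± 0.493 FPKM (SD, n = 3 each), or 0.73 ± 0.15 as log2 fold change (SE, adjusted p = 0.00166, limma), and 1.02 with a pseudocount of 0.1. *Pfkfb3* (chromosome 2, 11471433 to 11554077) had 12.7, 8.67 and 9.34 FPKM with IL-2 and 12.4, 18.5 and 14.7 FPKM with NKTR-214. ACT + IL-2 replicate 1 lay above ACT + NKTR-214 replicate 1, so the groups overlapped. The log2 fold change of *Pfkfb3* was 0.53 (standard error 0.17, limma adjusted p = 0.0331). It missed the threshold in the 3 other scalings (limma adjusted p = 0.0572 to 0.0716), without a minimum level and without ACT + IL-2 replicate 2, ACT + IL-2 replicate 3 or ACT + NKTR-214 replicate 2 (limma adjusted p = 0.134, 0.0997 and 0.179).

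*Pdk1* encodes a pyruvate dehydrogenase kinase that holds pyruvate back from the mitochondria. It had 20.4, 15.7 and 26.0 FPKM with IL-2 and 16.5, 16.2 and 16.7 FPKM with NKTR-214. The ACT + NKTR-214 tumors lay within the range of the ACT + IL-2 tumors, and the log2 fold change was -0.29 (limma adjusted p = 0.216). Lactate dehydrogenase A, encoded by *Ldha*, reduces pyruvate to lactate, and *Slc16a1* (MCT1) and *Slc16a3* (MCT4) encode transporters that move lactate across the membrane. *Ldha* had 322, 247 and 375 FPKM with IL-2 and 266, 236 and 263 FPKM with NKTR-214, with overlap (log2 fold change -0.28, limma adjusted p = 0.355). The log2 fold change was -0.20 for *Slc16a1* and -0.12 for *Slc16a3*, and neither passed.

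*Vegfa*, *Car9* and *Adm*, well-known targets of HIF, did not pass the test. *Vegfa*, which encodes the main growth factor of blood vessels, had 58.8, 41.97 and 80.7 FPKM with IL-2 and 54.1, 57.1 and 65.7 FPKM with NKTR-214. Its log2 fold change of 0.01 had a 95% interval from -0.42 to 0.44 (limma adjusted p = 0.984). *Car9*, the gene of a membrane carbonic anhydrase that acidifies the outside of hypoxic cells, had 123, 96.0 and 189 FPKM with IL-2 and 111, 100.4 and 133 FPKM with NKTR-214. The groups of *Car9* overlapped, and its log2 fold change of -0.19 had a 95% interval from -0.67 to 0.28 (limma adjusted p = 0.566). *Adm*, which encodes the vasodilator adrenomedullin, had a log2 fold change of -0.07 and an interval from -0.50 to 0.37. Each interval includes 0 and also fold changes of moderate size, so these values do not show that the groups were equal.

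Of the 36 genes *Egln3* had the highest log2 fold change. It encodes PHD3, a HIF prolyl hydroxylase, while *Egln1* encodes PHD2, the main hydroxylase at normal oxygen. *Egln3* (chromosome 12, 54178981 to 54203860) had 3.48, 0.85 and 2.02 FPKM with IL-2 and 5.11, 11.0 and 8.35 FPKM with NKTR-214. The groups did not overlap, and the tumors within each group differed widely, with ACT + IL-2 replicate 1 the highest of its group and ACT + NKTR-214 replicate 1 the lowest of its own. The means were 2.12 ± 1.32 and 8.15 ± 2.95 FPKM (SD, n = 3 each), or 1.59 ± 0.28 as log2 fold change (SE, adjusted p = 0.000422, limma), and 2.03 with a pseudocount of 0.1. About 51 reads are estimated to stand behind the lowest value. *Egln1* had 44.1 ± 11.2 and 34.98 ± 1.54 FPKM (SD, n = 3 each), with overlap and a log2 fold change of -0.30 (limma adjusted p = 0.229).

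Kinds of hydroxylase other than the HIF regulators are also HIF targets. *Kdm3a*, which encodes a histone H3 lysine 9 demethylase, had 31.0, 27.3 and 38.3 FPKM with IL-2 and 22.5, 22.2 and 26.2 FPKM with NKTR-214. The groups did not overlap, and the log2 fold change of -0.42 lay just outside the threshold (limma adjusted p = 0.0533). *P4ha1* and *P4ha2*, which encode the catalytic subunits of collagen prolyl hydroxylase, had log2 fold changes of 0.11 and 0.05 and did not pass. None of the 6 remaining HIF-induced genes passed. Their log2 fold changes ran from -0.33 for *Higd1a*, a mitochondrial protein gene, and -0.17 for *Bnip3*, a mitophagy receptor gene, through 0.00 for *Mxi1*, an antagonist of MYC, 0.01 for *Ddit4*, an inhibitor of mTORC1, and 0.11 for *Ndrg1*, to 0.26 for *Ankrd37*.

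**Figure D2:**
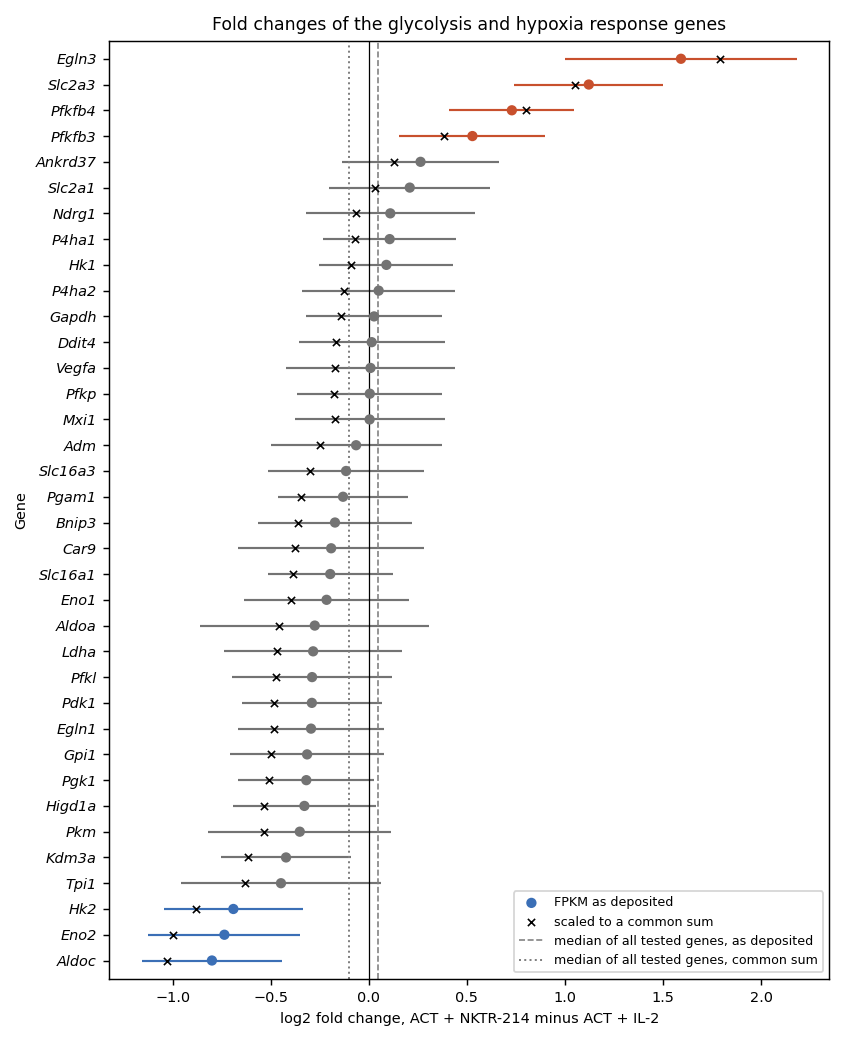
Log2 fold change (ACT + NKTR-214 minus ACT + IL-2) of the 36 genes with its 95% interval from limma for FPKM as deposited (orange, higher; blue, lower; grey, not past the threshold; the legend shows the filled point in blue), and as a cross the value after scaling each library to a common sum. The dashed and dotted vertical lines give the median of all tested genes, 0.05 as deposited and -0.10 after scaling. Most crosses lie left of their points, and the 3 lowest and 3 highest genes pass the threshold in the same direction with both scalings. The common sum was larger than the deposited sums, so the pseudocount shrinks the crosses less than the points.

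How many of the 36 genes were lower depended on how the libraries were brought to a common level. Scaling to a common 75th percentile, scaling to a common sum and quantile normalization gave 13, 16 and 16 lower genes (36.1%, 44.4% and 44.4% of the list) in place of 3, and 3 higher genes each (*Slc2a3*, *Pfkfb4* and *Egln3*). Over all tested genes, the share called lower was 26.2%, 31.2% and 32.1% and the share called higher 23.0%, 20.6% and 18.8%, and of all calls 46.8%, 39.8% and 37.0% were higher, against 71.5% with FPKM as deposited. The common sum and quantile normalization shifted the median of all genes by -0.15 each, and the median of the 36 genes minus that of all genes was -0.18 to -0.25 with these scalings and -0.20 as deposited. Leaving out ACT + IL-2 replicate 3 made it -0.03, and leaving out ACT + IL-2 replicate 2 made it -0.29, so its size rests on these tumors. The 10 genes that became lower in all 3 scalings were *Gpi1*, *Tpi1*, *Pgk1*, *Pkm*, *Pdk1*, *Ldha*, *Slc16a1*, *Egln1*, *Kdm3a* and *Higd1a*. Of these, *Gpi1*, *Tpi1*, *Pgk1*, *Pkm* and *Ldha* encode enzymes of the pathway from glucose to lactate. *Pfkl*, *Aldoa* and *Eno1* became lower in the common sum and quantile fits. Without ACT + IL-2 replicate 2, 10 genes (27.8%) were lower, against 14.0% of all tested genes, and 3 (8.33%) were higher, against 14.1%. Of the 7 genes called as deposited, 6 (all but *Pfkfb3*) were called in the same direction in 14 alternative fits, the exception being the fit in which each gene's variance came from its own 6 values (limma adjusted p = 0.0685 to 0.117 for these 6 genes in that fit).

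Multiplying a library by 1 factor, as the 75th percentile and common sum scalings do, does not move the ratio of 2 genes within a tumor. Such ratios of the deposited FPKM were taken for the 9 pairs of related genes in the list, a measure chosen after the values were seen and given without a test. The ratio of *Slc2a3* to *Slc2a1* was 0.0756, 0.0923 and 0.0845 in ACT + IL-2 and 0.196, 0.194 and 0.137 in ACT + NKTR-214. This ratio was thus higher in each ACT + NKTR-214 tumor than in every ACT + IL-2 tumor, although *Slc2a1* kept the higher FPKM. The ratio of *Hk2* to *Hk1* was 1.155, 1.249 and 1.225 in ACT + IL-2 and 0.656, 0.661 and 0.7804 in ACT + NKTR-214, without overlap. The FPKM of *Hk2* was thus above that of *Hk1* in all ACT + IL-2 tumors and below it in all ACT + NKTR-214 tumors. A ratio of FPKM depends on the exon lengths used, so its place above or below 1 does not settle which gene had more transcripts. The ratio of *Egln3* to *Egln1* was 0.07975, 0.02568 and 0.03645 in ACT + IL-2 and 0.146, 0.329 and 0.229 in ACT + NKTR-214.

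The other pairs differed less. The mean ratio of *Eno2* to *Eno1* was 0.0392 ± 0.00372 in ACT + IL-2 and 0.0251 ± 0.00112 in ACT + NKTR-214, and that of *Aldoc* to *Aldoa* was 0.0196 ± 0.00144 and 0.0131 ± 0.0015 (SD, n = 3 each), both without overlap. The brain-type forms were the less abundant in both groups, and their ratio to the widespread forms was lower in the ACT + NKTR-214 tumors. *Pfkfb4* to *Pfkfb3* (0.152 ± 0.0083 and 0.214 ± 0.0155) and *Pfkp* to *Pfkl* (0.66 ± 0.0461 and 0.8102 ± 0.0324, SD, n = 3 each) were higher in ACT + NKTR-214 without overlap. Quantile normalization can move such a ratio. The difference between the fitted log2 fold changes of *Aldoc* and *Aldoa* was -0.52 as deposited and -0.14 after it, that of *Eno2* and *Eno1* -0.52 and -0.42, and that of *Pfkfb4* and *Pfkfb3* 0.20 and 0.05. These fitted differences include the pseudocount, so scaling by 1 factor can move them too. Scaling to a common sum gave -0.57, -0.60 and 0.42 for these pairs. The ratios of *Slc16a3* to *Slc16a1* and of *P4ha2* to *P4ha1* overlapped between the groups.

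**Figure D3:**
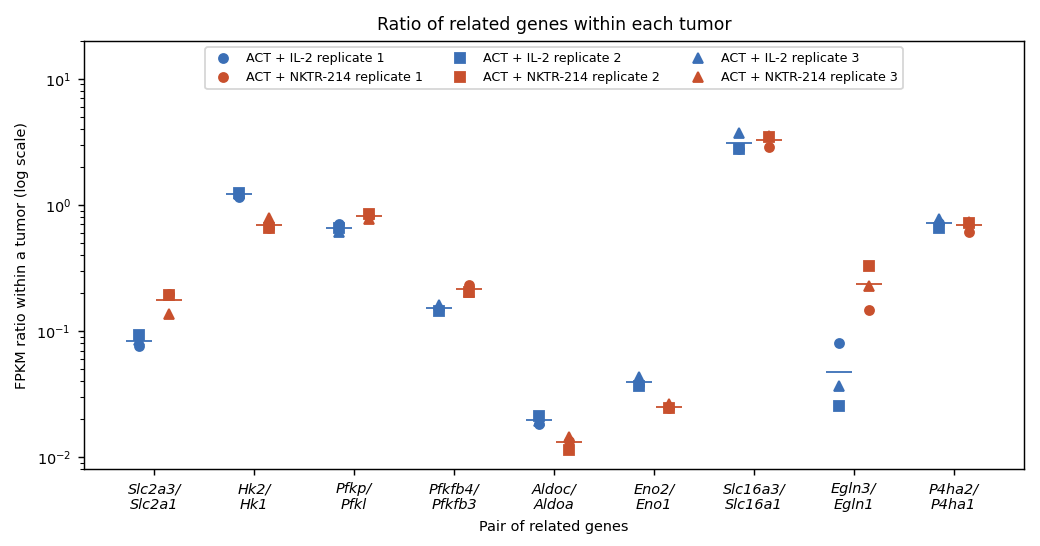
Ratio of the FPKM of 2 related genes within each tumor, on a log axis, for 9 pairs (blue, ACT + IL-2; orange, ACT + NKTR-214; the marker shape gives the replicate; lines are group means). In 4 pairs all orange points lie above all blue points, in 3 pairs below, and in 2 pairs they overlap.

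The 36 genes made up 1.54, 1.57 and 1.91% of the FPKM sum in ACT + IL-2 and 1.22, 1.07 and 1.42% in ACT + NKTR-214, also without overlap. This share is carried by *Aldoa*, *Tpi1*, *Pkm* and *Ldha*, the most abundant of the genes. The sum of the melanocyte lineage genes, given above, was lower in every ACT + NKTR-214 tumor as well. Among the 4 higher genes, *Egln3*, *Pfkfb3* and *Pfkfb4* were highest within the ACT + IL-2 group in replicate 1, which also had the highest T cell, macrophage and monocyte, neutrophil, endothelial, fibroblast, adipocyte and erythroid sums of that group, while *Slc2a3* was highest in replicate 3. In the ACT + NKTR-214 group all 4 were highest in replicate 2, which had the highest T cell, macrophage and monocyte, neutrophil, endothelial, fibroblast, skeletal muscle and erythroid sums of that group. These tumors, replicate 1 with IL-2 and replicate 2 with NKTR-214, also had the largest FPKM sums of their groups (231070.5 and 246513.7). Over all tested genes, replicate 3 was the highest of its group for 41.7% with IL-2 and for 14.6% with NKTR-214. How often genes in general were highest in the other replicates was not counted. The part of the cell types in these results was not tested.

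Among HIF itself and its regulators, the transcript of 1 HIF alpha subunit was higher. *Hif1a*, the gene of the widespread subunit, had 73.5, 51.7 and 67.5 FPKM with IL-2 and 71.4, 59.8 and 63.6 FPKM with NKTR-214, with overlap and a log2 fold change of 0.03 (limma adjusted p = 0.927). *Epas1*, which encodes HIF-2 alpha and is expressed in endothelial cells and macrophages, had 10.2, 5.76 and 7.05 FPKM with IL-2 and 17.2, 23.8 and 12.6 FPKM with NKTR-214, without overlap. Its log2 fold change was 1.11 ± 0.22 (SE, adjusted p = 0.00105, limma), and it passed in each fit that left out 1 tumor. *Arnt*, the gene of the shared partner of both subunits, and *Vhl* had log2 fold changes of -0.19 and -0.20 (limma adjusted p = 0.341 and 0.35). With the 3 other scalings both were lower, with log2 fold changes from -0.30 to -0.39. HIF is controlled mainly through the stability of its protein, which RNA does not measure. *Arnt2* was also higher at a low level (0.13 ± 0.0795 and 0.356 ± 0.063 FPKM, SD, n = 3 each) and missed the threshold after quantile normalization (limma adjusted p = 0.159) and in 4 of the 6 fits that left out 1 tumor. Of the 10 genes in this group, 9 were tested, and limma called 2 higher (22.2%, against 20.7% of all tested genes) and 0 lower (against 8.28%). With 75th percentile scaling, the common sum and quantile normalization 3, 4 and 3 of the 9 were lower (33.3%, 44.4% and 33.3%, against 26.2%, 31.2% and 32.1% of all tested genes), namely *Arnt*, *Vhl* and *Hif1an* in each and *Egln2* with the common sum.

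Of 24 further HIF-induced genes outside the 36, 8 were higher (33.3%, against 20.7% of all tested genes) and 1 was lower (4.17%, against 8.28%). With 75th percentile scaling, the common sum and quantile normalization 7 each were higher (29.2%), where 23.0%, 20.6% and 18.8% of all tested genes were. Lower were 5, 9 and 6 of the 24, where 26.2%, 31.2% and 32.1% of all tested genes were. Without ACT + IL-2 replicate 2 there were 4 higher (16.7%, against 14.1% of all tested genes) and 5 lower (20.8%, against 14.0%). *Lox*, which encodes lysyl oxidase of the collagen matrix, had means of 14.1 ± 9.45 and 40.7 ± 11.5 FPKM (SD, n = 3 each), with a difference of 1.60 on the log2 scale (limma adjusted p = 0.000871), and missed the threshold without ACT + IL-2 replicate 2 (limma adjusted p = 0.0592). Further higher genes were *Angptl4*, *Hmox1*, *Stc2*, *Hilpda*, *Zfp395* and *Tmem45a*, and the lower gene was *Gbe1*. Of these, *Angptl4*, *Hilpda* and *Tmem45a* missed the threshold without ACT + IL-2 replicate 2 (limma adjusted p = 0.102, 0.0625 and 0.283), *Tmem45a* also without ACT + IL-2 replicate 3 (0.107) and in the 3 other scalings (0.103 to 0.199), and *Gbe1* without ACT + IL-2 replicate 3 (0.237) or ACT + NKTR-214 replicate 2 (0.208). The median log2 fold change of the 24 genes was -0.09.

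Glycolytic genes outside the 36 gave 2 higher (12.5%) and 3 lower (18.8%) of 16 tested, against 20.7% and 8.28% of all tested genes. In the 3 other scalings 6, 6 and 8 of the 16 were lower, where 26.2%, 31.2% and 32.1% of all tested genes were lower. Without ACT + IL-2 replicate 2 the lower genes numbered 5 (31.2%, against 14.0% of all tested genes). *Hk3*, the hexokinase gene of myeloid cells, had 21.8, 12.3 and 10.1 FPKM with IL-2 and 36.8, 43.0 and 35.0 FPKM with NKTR-214, without overlap (log2 fold change 1.39, standard error 0.21, limma adjusted p = 0.000133). *Ldhb*, the lactate dehydrogenase gene of heart, had 37.6, 29.8 and 37.2 FPKM and 24.2, 14.9 and 24.7 FPKM, a log2 fold change of -0.71 (limma adjusted p = 0.00812). It missed the threshold without ACT + NKTR-214 replicate 2 (limma adjusted p = 0.064). The 3 hexokinase genes thus differed in direction, with *Hk3* higher, *Hk2* lower and *Hk1* not past the threshold.

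In the neighbouring routes, 2 of 10 genes of pyruvate entry to the mitochondria were higher and 1 was lower. Of 7 genes of the pentose phosphate pathway 1 was higher (14.3%). Over all tested genes 20.7% were higher and 8.28% lower. In the 3 other scalings 3, 4 and 3 of the 10 genes were lower, *Pdhx*, *Dlat* and *Dld* in each and *Pdhb* with the common sum. Of the 7 genes 1, 2 and 1 were lower, where 26.2%, 31.2% and 32.1% of all tested genes were. *Pdp1*, which encodes the phosphatase that reactivates pyruvate dehydrogenase, rose from 1.23 ± 0.161 to 2.74 ± 0.315 FPKM (SD, n = 3 each), with a difference of 0.74 on the log2 scale (limma adjusted p = 0.000592). *Pdk2*, a kinase gene of the opposite action, was higher by 0.48 on the log2 scale (limma adjusted p = 0.0287) and missed the threshold after quantile normalization (0.117) and in 4 of the 6 fits that left out 1 tumor. *Dlat*, the lower gene, missed it in 4 of those fits too (limma adjusted p up to 0.251). *G6pdx*, the gene of the first enzyme of the pentose phosphate pathway, rose from 18.3 ± 3.19 to 25.4 ± 0.452 FPKM (SD, n = 3 each), with a difference of 0.47 on the log2 scale (limma adjusted p = 0.0269), and missed the threshold in 5 of those 6 fits (limma adjusted p up to 0.114). Over all 5 lists 66 genes were tested, of which 15 were higher (22.7%, against 20.7% of all tested genes) and 5 lower (7.58%, against 8.28%). With 75th percentile scaling, the common sum and quantile normalization 18, 25 and 21 of the 66 were lower, where 26.2%, 31.2% and 32.1% of all tested genes were lower, and 15, 14 and 12 were higher, where 23.0%, 20.6% and 18.8% were. Without ACT + IL-2 replicate 2, 7 were higher (10.6%, against 14.1% of all tested genes) and 13 lower (19.7%, against 14.0%).

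**Figure D4:**
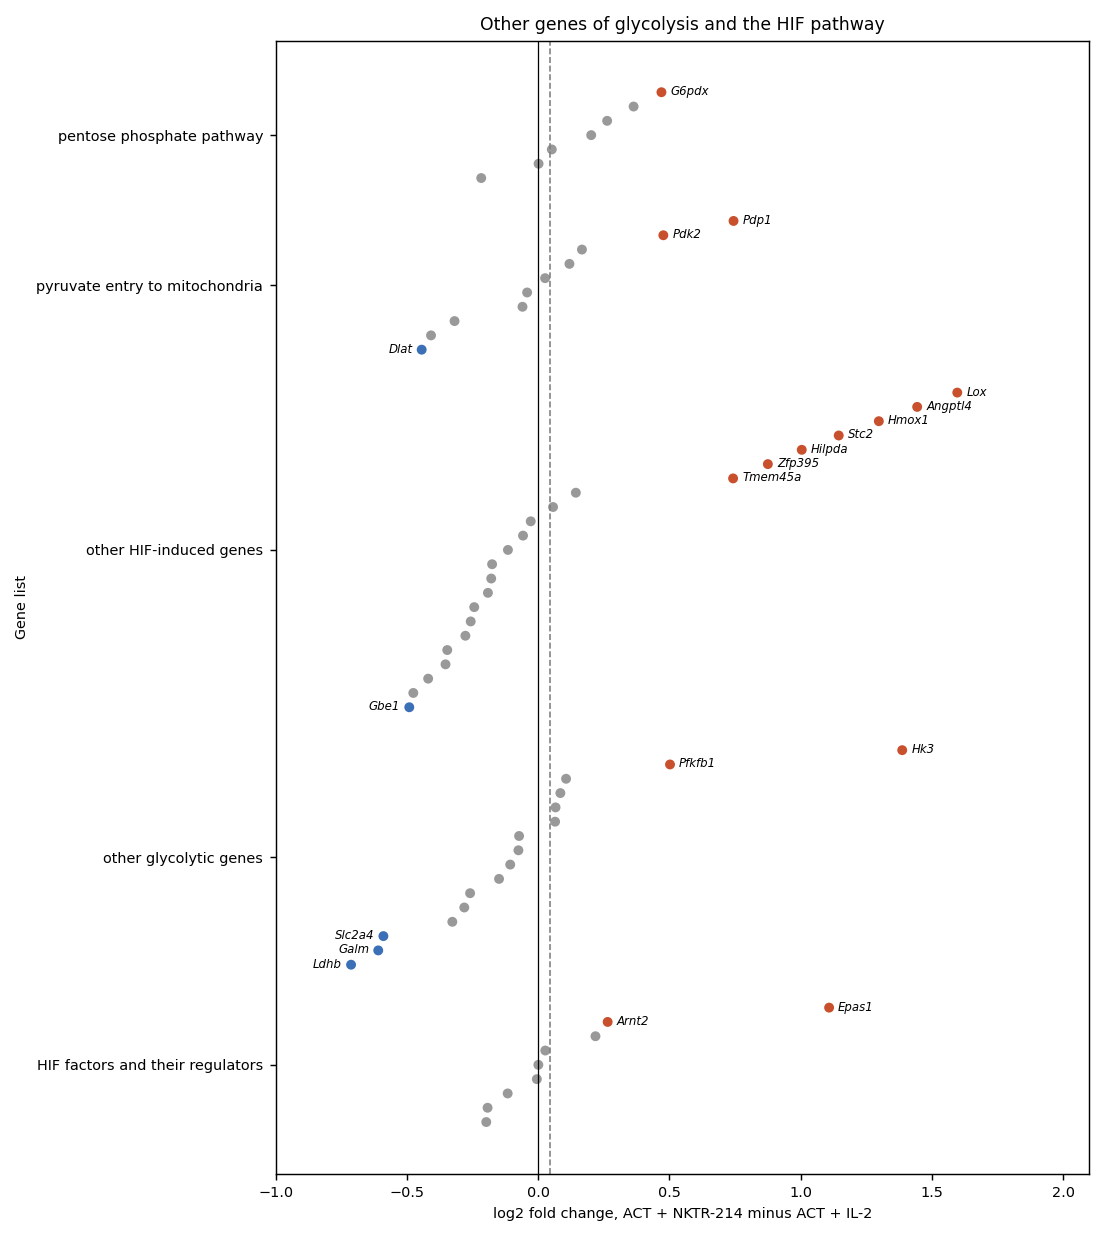
Log2 fold change (ACT + NKTR-214 minus ACT + IL-2) of the tested genes of 5 further lists, with 1 point per gene and 1 gene left out (orange, higher; blue, lower; grey, not past the threshold; names are given for genes past it); the vertical spread within a list only parts the points. The solid line is 0 and the dashed line the median of all tested genes, 0.05. The widest values lie to the right, among them *Lox* at 1.60 and *Hk3* at 1.39.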

How the data were processed

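RNA of 6 tumors was analysed, 3 per group. Per the labels and the study's methods, the authors mapped the reads to GRCm38 with HISAT2 2.0.4, used HTSeq to count reads over genes, and converted the counts to the linear FPKM that were deposited for each tumor. Groups and replicate numbers came from the sample titles, and nothing was imputed or left out. The fit used limma 3.58.1 (lmFit, eBayes with trend) in R 4.3.3, and tables and figures used Python 3.11.15. Replicate numbers stand for different mice, so no block was used. FPKM holds no counts. Depth was estimated from the ratio between libraries of the smallest FPKM steps (131 to 144 genes per ratio) and the GENCODE vM21 exon lengths of 61 genes with 1 transcript (quartiles 21700000 to 23900000 reads for ACT + IL-2 replicate 1), and no counting interval is given. Gene positions, exon lengths and shared windows of 50 bases are those of GENCODE vM21 on GRCm38, which need not be the authors' annotation. Promoter windows are from RefSeq.

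The 36 genes and the other lists were chosen with earlier results of these data known. Values per tumor are given for genes past the threshold, with a mean of at least 100 FPKM or with no overlap between the groups, and for *Slc2a1*, *Hk2*, *Ldha*, *Vegfa*, *Car9* and *Pdk1*. Of each other list, the 2 called genes with the largest absolute log2 fold change are described, and *Hif1a*, *Epas1*, *Arnt* and *Vhl*. The values of 1 gene of these lists are not reported here, although the counts include it. The fit was tested on simulated data.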

Additional observations from a re-analysis of the deposited data

How the results depend on the processing

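Of the 540 values that the 36 genes took under 15 alternatives, 481 stayed on their side of the threshold, 45 passed it newly, 14 lost it and 0 called values changed sign. The median log2 fold change of the 36 genes was -0.15 as deposited. It ran from -0.35 with scaling to a common sum to 0.05 without ACT + IL-2 replicate 3, the only alternative where it was positive. Between tumors of a group the median log2 level of these genes had an SD of 0.213, which does not measure the error of a fold change. With 75th percentile scaling, scaling to a common sum and quantile normalization, 13, 16 and 16 of the 36 genes, 3709, 4426 and 4549 of all genes and 18, 25 and 21 of the other pathway genes were lower. The cause was not tested. With each gene's variance from its own 6 values, limma called 0 of the 36 genes higher and 0 lower (6 had an unadjusted p under 0.05), 101 and 27 of all genes, and 0 and 0 of the other pathway genes. Without a minimum level 3 of the other pathway genes were lower. With 1 tumor left out, 3 to 10 of the 36 genes, 636 to 1996 of all genes and 2 to 13 of the other pathway genes were lower, and 7 to 15 of the latter were higher. Without ACT + IL-2 replicate 2 these were 10, 1996, 13 and 7. Leaving out ACT + IL-2 replicate 3 gave 636 lower genes in all and 2 in the other lists, and leaving out the second ACT + NKTR-214 tumor gave 680 and 3. With the replicate number as a block, 4 of the 36 genes were higher and 4 lower, *Kdm3a* being added (adjusted p = 0.0393 from limma), but the pairing has no basis in the labels (correlations of the deviations of same-numbered tumors -0.21, -0.07 and 0.4). The depth limits *Egln3*, *Pfkfb4*, *Pgam1* and *Ankrd37* most.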
